A study of Mus musculus with 9 samples.

Results

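The core circadian clock loop was described in heart through its 10 genes, Arntl, Clock, Npas2, Per1, Per2, Per3, Cry1, Cry2, Nr1d1 and Nr1d2, chosen by symbol from a heart count table of 13890 genes. All 10 were found in the table and all 10 passed the filter on low counts, which left 13364 genes. The hearts came from male NSG mice, an immunodeficient strain, that were 8 weeks old at surgery and were killed about 3 weeks later. Sham mice received saline into the spleen (S, animals 2, 3 and 5). Mice of the next group received HCT116 cells, an established human colorectal cancer line that seeds the liver from the spleen (T, animals 11, 12 and 15). The last group carried the same cells and was also given ACVR2B/Fc every week, a soluble decoy of the activin receptor ACVR2B that binds activins and myostatin (A+T, animals 20, 21 and 22). Each group thus held 3 libraries from 3 animals, and the design compares T with S, A+T with T, and A+T with S. HCT116 cells are a single line, so the hosts model tumours of that line in animals without adaptive immunity. The hour of tissue collection is not given in the sources used here, and a difference in hour between groups and a difference in treatment cannot be told apart.

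The clock is a transcriptional loop that runs in nearly every cell, cardiomyocytes included. BMAL1 (encoded by Arntl) pairs with CLOCK or its relative NPAS2 and activates genes that carry E-boxes, among them the Per, Cry and Nr1d genes. The PER and CRY proteins return to the nucleus and inhibit the same activators. The REV-ERB receptors, products of Nr1d1 and Nr1d2, repress Arntl and other genes through ROR elements, which the ROR receptors activate. In heart, the loop is known to time metabolic and electrical genes over the day. Because Arntl and its repressors normally peak at nearly opposite hours, the arms of the loop are best read against each other within a library.

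Some properties of the libraries touch the results. The libraries held between 12392222 and 19732471 counts, so that 3 counts equalled 0.152 to 0.281 CPM, which are counts scaled to a common library total with TMM factors. Of the cardiomyocyte markers, Tnni3 ran from 3488 to 4510 CPM and Myh6 from 13196 to 27271 CPM over the 9 libraries. The fold changes of T vs. S follow, gene by gene, a list that the study heads as ACVR2B vs. sham and not its list for tumour hosts, so the group is named by its label here and a direction given for T rests on that label. Animals 12 and 22 stood apart by RNA of airway and lung markers, though not by the same ones. The summed level of the 3 airway and lung markers of the 7 listed that were in the table was 104 CPM in animal 12 and 1278 CPM in animal 22, against 0.497 to 2.38 CPM in S and at most 1.87 CPM in the remaining hosts. Scgb1a1, the main airway secretory protein, made up most of both sums, at 79.9 CPM in animal 12 and 1078 CPM in animal 22. It was at 0 in animals 2, 20 and 21. Scgb3a1 was at 23.4 CPM in animal 12 but at 0.431 CPM in animal 22, and Sftpb was at 199 CPM in animal 22 but at 0.594 CPM in animal 12. Adipocyte markers, 4 of the 6 listed being in the table, summed to 78.1 CPM in animal 12 and to at most 18.4 CPM in each other library. Values without animals 12 and 22 are given beside the clock genes where the call changed and for some of the changes in size.

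Other cell type markers moved with the groups as well. The 5 fibroblast markers summed to between 1249 and 1430 CPM in S and to between 768 and 899 CPM in T. In A+T the sums ran from 957 to 1384 CPM. All 5 fell in T vs. S and were called, which means that they passed the test defined below for the clock genes. Of all genes tested, 21.2% were called in T vs. S and 8.31% in A+T vs. S. The endothelial markers fell in 4 of 5 cases, with sums of 732 to 860 CPM in S and 414 to 521 CPM in T. All 6 leukocyte and macrophage markers had positive fold changes in A+T vs. S, and 5 of them were called. Their sums were 224 to 263 CPM in S and 487 to 698 CPM in A+T. For the 8 cardiomyocyte markers the sums ran from 75493 to 81109 CPM in S, from 62582 to 75959 CPM in T and from 57839 to 74352 CPM in A+T. These 8 did not move together. In T vs. S Tnnt2 (log2 fold change 0.34) and Pln (0.38) were called as higher, Actc1 (−0.90) was called as lower, and 5 were not called. In A+T vs. S 0 of the 8 were called. The 5 atrial markers summed to between 2999 and 3083 CPM in S, to between 861 and 4552 CPM in T, with the highest value in animal 12, and to between 793 and 2054 CPM in A+T. All 5 had negative fold changes in both comparisons with S, and of them Bmp10 in T vs. S was called. In whole heart tissue, fewer cells of a type and less RNA per cell cannot be told apart. The part of these cell types in the clock gene values was not tested.

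The sequences below are shown because the loop acts on its own genes through short promoter motifs. Of the 6 clock genes whose windows held one of the searched motifs, all but Cry2 are printed. RefSeq windows on GRCm38.p6, from 250 bases before to 50 bases after a transcription start, were matched for 9 of the 10 genes (13 windows, Per2 having none). Each was searched on both strands for the E-box CACGTG, the E′-box CACGTT, the D-box written TTATGTAA or TTACGTAA, and the ROR element written TAGGTCA or TGGGTCA. Of all 32851 mouse windows of this kind, 7.15% held the E-box, 4.68% the E′-box, 1.06% the D-box and 6.45% the ROR element. A match is a description of letters and not evidence of binding.

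The 250 bases upstream of Cry1 (chr10:85185055-85185304, minus strand) held an E′-box that starts 79 bases and an E-box that starts 60 bases before the start site. Those of Nr1d1 (chr11:98775378-98775627, minus strand) held an E′-box 28 bases before it. In both, capitals mark the motif, and AACGTG is the E′-box read on the other strand.
Cry1: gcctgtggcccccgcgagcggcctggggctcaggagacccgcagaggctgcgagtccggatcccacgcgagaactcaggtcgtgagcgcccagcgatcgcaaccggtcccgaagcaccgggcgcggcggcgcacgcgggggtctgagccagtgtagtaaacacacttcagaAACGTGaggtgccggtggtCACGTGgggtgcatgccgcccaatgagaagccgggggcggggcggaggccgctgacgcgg
Nr1d1: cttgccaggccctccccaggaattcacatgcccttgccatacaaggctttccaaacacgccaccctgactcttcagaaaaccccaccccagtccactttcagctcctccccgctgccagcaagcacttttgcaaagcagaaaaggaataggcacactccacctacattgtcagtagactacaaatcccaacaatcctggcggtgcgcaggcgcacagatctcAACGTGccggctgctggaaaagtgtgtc

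Shorter stretches carried the matches of Per1, Per3 and Arntl, with the motif in capitals. Per1 (chr11:69098763-69098808, plus strand) had an E-box 166 bases before its start, Per3 (chr4:151044796-151044890, minus strand) had 2 D-boxes, 205 and 158 bases before its start, and Arntl (chr7:113207531-113207557, plus strand) had a ROR element that begins at base 31 counted from its transcription start.
Per1: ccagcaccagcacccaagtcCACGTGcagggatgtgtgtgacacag
Per3: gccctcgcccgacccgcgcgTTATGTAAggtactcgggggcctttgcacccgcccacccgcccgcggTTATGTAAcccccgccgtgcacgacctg
Arntl: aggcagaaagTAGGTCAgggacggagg
Cry2 had an E′-box 166 bases before its start. In the windows of Clock, Npas2 and Nr1d2 none of the searched letters were found.

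In the hearts labelled T, Arntl and Cry1 were lower and Nr1d1 and Nr1d2 were higher than in S. These 4 of the 10 clock genes were called, that is, their P-value from edgeR's quasi-likelihood test, adjusted over all genes by Benjamini-Hochberg, was under 0.05, and 21.2% of all genes tested were called. The study's own cut-offs (fold change 1.5 or more, P-value below 0.05 before adjustment) added Npas2, Per1 and Per3 and passed 7 of 10, against 14.2% of all genes. The same 7 genes had no overlap between their T and S libraries, as had 42.6% of all genes. The median absolute log2 fold change of the 10 genes was 0.83, against 0.23 over all genes tested. The 3 genes of the positive arm (Arntl, Clock, Npas2) all had negative fold changes, with a median of −0.73. Of the 7 genes of the negative arm, 6 had positive fold changes and Cry1 had a negative one, with a median of 0.87.

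**Figure D1:**
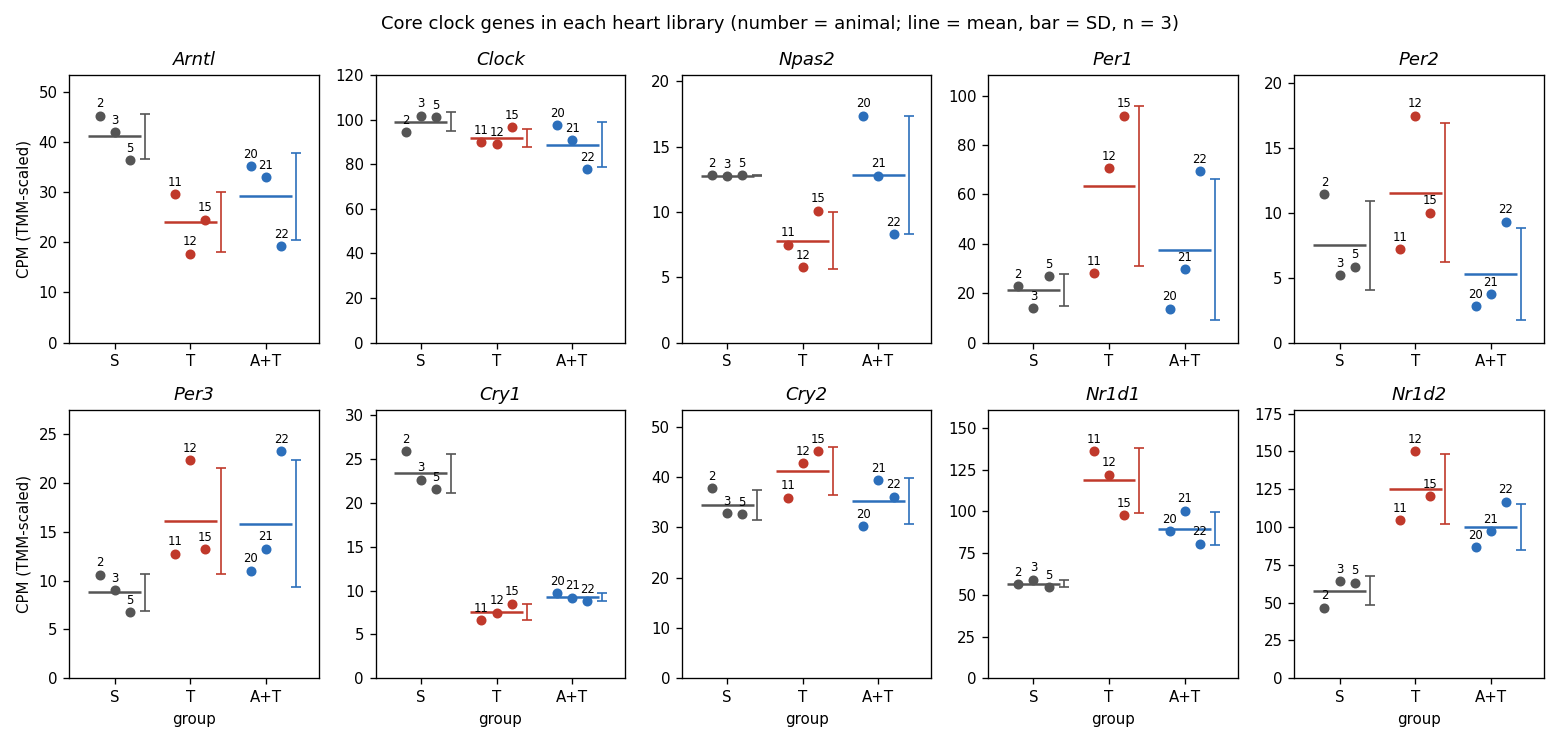
Level of each of the 10 clock genes in CPM (vertical axis, from 0) in the 9 heart libraries by group. Points are libraries numbered by animal, lines are group means and bars are SD (n = 3). The T libraries of Cry1 lie at 6.63 to 8.51 CPM, below the S libraries at 21.5 to 25.9 CPM, while Per1 spreads from 28.1 to 91.9 CPM within T.

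Arntl (GRCm38 chr7:113207465-113314126, plus strand) encodes BMAL1, the partner that the activating complex cannot do without. Its level was 45.3, 42.0 and 36.4 CPM in animals 2, 3 and 5 of S, 29.7, 17.8 and 24.5 CPM in animals 11, 12 and 15 of T, and 35.2, 33.0 and 19.2 CPM in animals 20, 21 and 22 of A+T. Each host library, treated or not, lay below each S library, and animals 12 and 22 were the lowest of their groups. Arntl fell in T vs. S (log2 fold change −0.78, standard error 0.23, adjusted P = 0.0337), from a mean of 41.2 ± 4.50 to 24.0 ± 5.97 CPM (SD, n = 3). With 1 animal left out the call stood in 4 of 9 fits, with the highest adjusted P-value at 0.109 without animal 2 of S. It also stood without animals 12 and 22 (−0.59, adjusted P = 0.00523). The A+T vs. S value of −0.50 did not pass (adjusted P = 0.188), nor did the A+T vs. T value of 0.28 (adjusted P = 0.512). Without animals 12 and 22 the A+T vs. S value of Arntl was −0.27 (adjusted P = 0.176).

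Clock (chr5:76209868-76304792, minus strand), the usual partner of BMAL1, had the most even level of the loop. It ranged from 94.3 to 102 CPM in S, from 88.9 to 96.6 CPM in T and from 77.8 to 97.5 CPM in A+T, and the ranges overlapped in each comparison. Its log2 fold change was −0.11 in T vs. S (95% interval −0.31 to 0.09, adjusted P = 0.419), so that a change of 1.5-fold or more lies outside the interval. Npas2 (chr1:39193731-39363236, plus strand), the relative that can replace CLOCK, stood at 12.8, 12.7 and 12.8 CPM in S, at 7.49, 5.76 and 10.1 CPM in T and at 17.4, 12.8 and 8.31 CPM in A+T. The T libraries lay below the S libraries without overlap, while animals 20 and 22 of A+T lay above and below S. The T vs. S value of Npas2 was −0.73 (standard error 0.26, adjusted P = 0.0670) and its A+T vs. T value was 0.74 (standard error 0.26, adjusted P = 0.122). Without animals 12 and 22 both passed, at −0.55 (adjusted P = 0.0372) and 0.80 (adjusted P = 0.0308).

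The Per genes encode the PER proteins, which carry the CRY repressors into the nucleus, and Per1 and Per2 also respond quickly to hormones and other acute signals. Per1 (chr11:69095217-69109960, plus strand) was at 22.9, 14.0 and 26.9 CPM in S, at 28.1, 70.6 and 91.9 CPM in T and at 13.8, 29.9 and 69.4 CPM in A+T. Animal 11 of T lay just above the highest S library, whereas animals 12 and 15 lay well above it. Its log2 fold change in T vs. S was 1.58, close in size to that of Cry1, but its standard error of 0.55 was the largest among the 10 genes and it did not pass (adjusted P = 0.0650). It did pass without animals 12 and 22 (1.495, adjusted P = 0.0327) and in 3 of the 9 fits that dropped 1 animal. Against S, the A+T value was 0.84 (adjusted P = 0.363) and without animal 22 it was 0.04. The A+T vs. T value of Per1 was −0.74 (adjusted P = 0.446), and without animals 12 and 22 it was −1.45 (adjusted P = 0.120).

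Per2 (chr1:91415982-91459324, minus strand) was at 11.4, 5.17 and 5.86 CPM in S, at 7.18, 17.5 and 10.01 CPM in T and at 2.78, 3.73 and 9.30 CPM in A+T, so the groups overlapped in each comparison. Its A+T vs. T value was −1.13 (standard error 0.48, adjusted P = 0.193), ran from −1.84 to −0.69 with 1 animal left out, and passed in 1 of those 9 fits, without animal 22 (adjusted P = 0.0342). Its T vs. S value was 0.63 (adjusted P = 0.366) and ran from 0.18 to 1.08. Without animals 12 and 22 these values of Per2 were −1.39 (adjusted P = 0.0608) and 0.18 (adjusted P = 0.709). The A+T vs. S value of Per2 was −0.50 (adjusted P = 0.542) with all animals and −1.21 (adjusted P = 0.0609) without animals 12 and 22. Per3 (chr4:151003652-151044665, minus strand) was at 10.6, 8.98 and 6.80 CPM in S, at 12.8, 22.3 and 13.2 CPM in T and at 11.003, 13.3 and 23.2 CPM in A+T. Both host groups lay above S without overlap, and animals 12 and 22 were the highest of their groups. The values of Per3 were 0.87 in T vs. S (standard error 0.31, adjusted P = 0.0668) and 0.84 in A+T vs. S (standard error 0.30, adjusted P = 0.114), and without animals 12 and 22 they were 0.56 (adjusted P = 0.0418) and 0.46 (adjusted P = 0.132).

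Cry1 and Cry2 encode the cryptochromes, the repressors that bind CLOCK and BMAL1 directly, and of the 2 Cry1 also carries ROR elements known to delay its peak. Cry1 (chr10:85131700-85185064, minus strand) was at 25.9, 22.6 and 21.5 CPM in S, at 6.63, 7.49 and 8.51 CPM in T and at 9.70, 9.18 and 8.81 CPM in A+T. The 3 groups did not overlap, with S highest and T lowest. Cry1 fell in T vs. S (log2 fold change −1.64, standard error 0.12, adjusted P = 7.69e-05), a level 3.11-fold lower, and in A+T vs. S (−1.34, standard error 0.12, adjusted P = 0.000836), 2.53-fold lower. Leaving out any single animal changed neither call. Between A+T and T the value was 0.30 (standard error 0.13, adjusted P = 0.192).

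Cry2 (chr2:92403646-92434043, minus strand) did not follow Cry1. Its level ran from 32.6 to 37.8 CPM in S, from 35.9 to 45.1 CPM in T and from 30.2 to 39.3 CPM in A+T, with overlap in each comparison. The T vs. S value was 0.26 (95% interval −0.01 to 0.52, adjusted P = 0.150), an interval that leaves out a fall of the size measured for Cry1. Within each library, log2 CPM of Cry1 minus Cry2 was −0.56 ± 0.03 in S (SD, n = 3), compared with −2.43 ± 0.05 in T and −1.91 ± 0.25 for A+T. The 3 groups did not overlap on this scale.

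Nr1d1 (chr11:98767932-98775333, minus strand) and Nr1d2 (chr14:18204054-18239127, minus strand) encode REV-ERBα and REV-ERBβ, haem-binding nuclear receptors that repress Arntl and recruit the NCOR and HDAC3 corepressors. Nr1d1 was at 56.5, 59.0 and 54.6 CPM in S, at 136, 122 and 97.6 CPM in T and at 88.1, 100.5 and 80.7 CPM in A+T. Nr1d2 was at 46.7, 64.1 and 63.3 CPM in S, at 105, 150 and 121 CPM in T and at 86.8, 97.1 and 117 CPM in A+T. For both genes each host library lay above each S library, and T and A+T overlapped. Nr1d1 rose 2.09-fold in T vs. S (log2 fold change 1.06, standard error 0.12, adjusted P = 0.000405) and 1.58-fold in A+T vs. S (0.66, standard error 0.12, adjusted P = 0.0123). Nr1d2 rose 2.16-fold in T vs. S (1.11, standard error 0.17, adjusted P = 0.00150) and 1.73-fold in A+T vs. S (0.79, standard error 0.17, adjusted P = 0.0197). Leaving out any single animal kept the T vs. S calls, while the A+T vs. S calls of Nr1d1 and Nr1d2 were kept in 8 and 7 of 9 such fits, with the highest adjusted P-values of 0.0566 and 0.0783 without animal 2 of S. The Thra locus overlaps Nr1d1 on the other strand. The counting was strand-specific, and how well it kept the 2 loci apart was not tested.

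**Figure D2:**
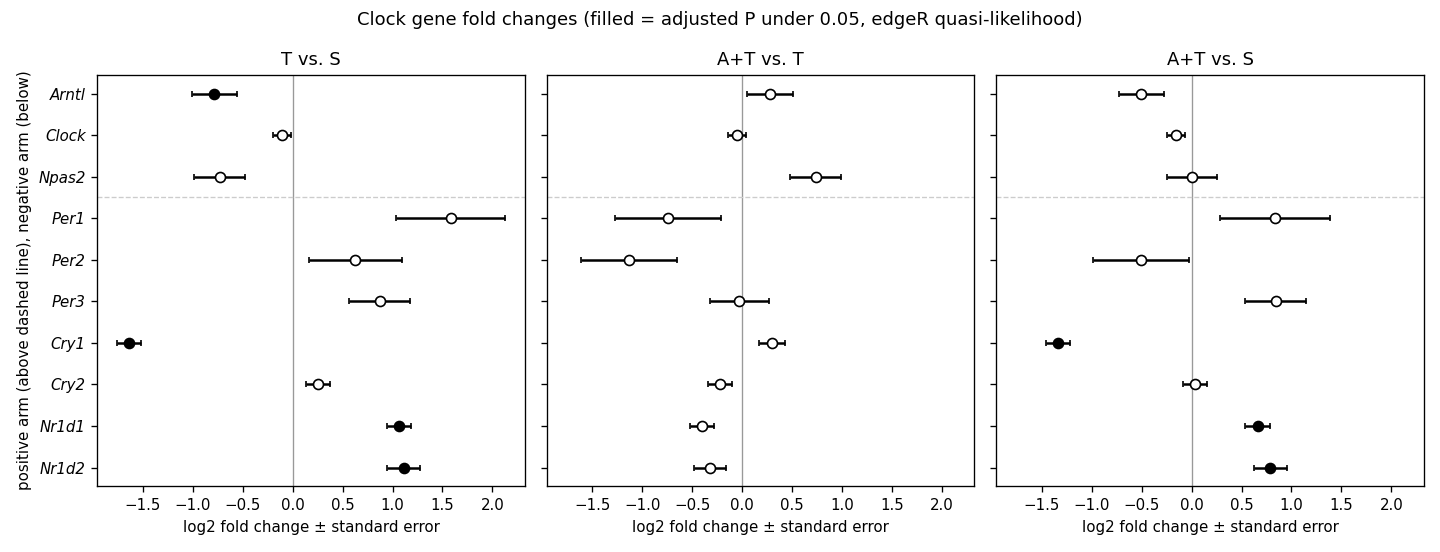
Log2 fold change (horizontal axis) with standard error of each clock gene in the 3 comparisons, n = 3 libraries per group. Filled points passed an adjusted P-value of 0.05 in edgeR's quasi-likelihood test. In T vs. S 4 genes are filled, in A+T vs. T 0, and in A+T vs. S 3, namely Cry1 at −1.34, Nr1d1 at 0.66 and Nr1d2 at 0.79.

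With ACVR2B/Fc, the comparison of A+T with T called 0 of the 10 genes in edgeR's quasi-likelihood test, where 5.88% of all genes were called. Npas2, Per2, Cry1 and Nr1d1 had an unadjusted P-value under 0.05 in that test. The share of all genes under that cut-off was not taken, so nothing is read from it. DESeq2 called 1 of the 10 genes (Nr1d1, −0.41, adjusted P = 0.0315) and limma-voom 0. The study's cut-offs passed 2 of 10 (Npas2 and Per2), against 8.10% of all genes. Only Cry1 had no overlap between the A+T and T libraries, as had 25.4% of all genes. The median absolute log2 fold change was 0.31 for the 10 genes and 0.17 over all genes tested. Of the 4 genes called in T vs. S, each had an A+T vs. T value of the other sign, at 0.28 for Arntl, 0.30 for Cry1, −0.40 for Nr1d1 and −0.32 for Nr1d2, but the T libraries enter both comparisons and opposite signs can arise from that alone.

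Compared with S, the A+T hearts had 3 called genes, Cry1 being lower and Nr1d1 and Nr1d2 higher, where 8.31% of all genes were called. The study's cut-offs added Per3 and passed 4 of 10, against 8.91% of all genes. Arntl, Per3, Cry1, Nr1d1 and Nr1d2 had no overlap between A+T and S, as had 32.4% of all genes. The median absolute log2 fold change was 0.58, against 0.19 over all genes tested.

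The arms were then set against each other inside each library, where library size cancels. The measure was the mean log2 CPM of the positive arm minus that of the negative arm. Its zero point depends on gene length, so that only differences between libraries were read. In S it was 0.57, 0.84 and 0.70 for animals 2, 3 and 5. In T it was 0.04, −0.93 and −0.25 for animals 11, 12 and 15, which put each T library below each S library and the group mean 1.08 below that of S. In A+T it was 1.02, 0.46 and −0.52 for animals 20, 21 and 22. Animal 20 thus lay above the S libraries and animal 22 among the T libraries, and A+T overlapped with both other groups. The mean of A+T was 0.39 below S, and 0.03 above S without animal 22, which therefore decides the direction of that difference. Without animals 12 and 22 the T vs. S difference was −0.81. The mean of A+T was 0.70 above that of T (0.35 to 1.11 with 1 animal left out). Leaving out any 1 of the 10 genes moved the T vs. S difference to between −1.44 (without Cry1) and −0.93 (without Per1).

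**Figure D3:**
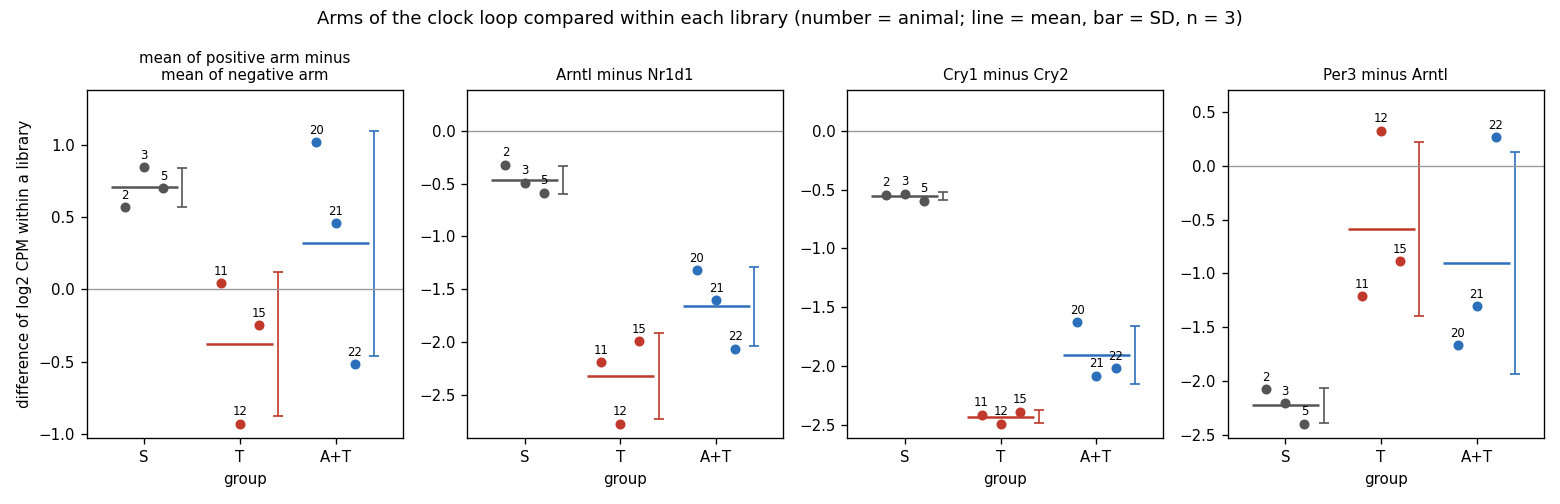
Difference of log2 CPM within each library (vertical axis) for the arms of the loop and for 3 gene pairs, by group. Points are libraries numbered by animal, lines are means and bars are SD (n = 3). Arntl minus Nr1d1 separates both host groups from S, while the difference of the arms runs from 1.02 in animal 20 to −0.52 in animal 22 within A+T.

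Single pairs of genes were read in the same way. Arntl minus Nr1d1, the activator against its direct repressor, was −0.46 ± 0.13 in S (SD, n = 3), against −2.32 ± 0.41 for T and −1.66 ± 0.38 for A+T. Both host groups lay below S without overlap, and they overlapped with each other. Arntl minus Nr1d2 gave −0.48 ± 0.39, −2.39 ± 0.63 and −1.81 ± 0.69 with the same separation. Cry1 minus Nr1d1 was −1.28 ± 0.14 in S, against −3.95 ± 0.42 for T and −3.26 ± 0.15 for A+T, and no group overlapped with another. Npas2 minus Clock was −2.94 ± 0.06 in S, against −3.57 ± 0.34 for T and −2.84 ± 0.36 for A+T, so that T lay below both other groups and A+T overlapped with S. Per3 minus Arntl was −2.23 ± 0.16 in S, against −0.59 ± 0.81 for T and −0.90 ± 1.03 for A+T, with each host library above S. Per2 minus Arntl was −2.52 ± 0.51 in S, against −1.11 ± 1.01 for T and −2.58 ± 1.36 for A+T, and it overlapped in each comparison.

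Against the cryptochromes alone the positive arm did not separate the groups. The mean of Arntl, Clock and Npas2 minus the mean of Cry1 and Cry2 was 0.40 ± 0.10 for S, 0.53 ± 0.29 for T and 0.79 ± 0.40 for A+T, with overlap in each comparison. Set against the 3 Per genes it was 1.78 ± 0.34 for S and 0.26 ± 0.76 for T, and set against the REV-ERB genes −0.61 ± 0.15 for S and −2.24 ± 0.40 for T, both without overlap. In A+T the first was 1.27 ± 1.25 and overlapped with both groups, and the second was −1.59 ± 0.45, overlapping with T but not with S.

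The animals of one group were also compared gene by gene. Animal 12 had the lowest Arntl, Clock and Npas2 of T and the highest Per2, Per3 and Nr1d2. Animal 22 had the lowest of all 3 positive arm genes of A+T and the highest of all 3 Per genes. At the other end, animal 20 had the highest of the 3 positive arm genes and the lowest of the 3 Per genes of A+T, and animal 11 had the lowest of the 3 Per genes of T. Per1 spanned a 5.0-fold range among the A+T animals and a 3.26-fold range among the T animals, but 1.92-fold among the S animals. Animals 12 and 22 were also those with high airway and lung markers, with sums of 104 and 1278 CPM. The part of such tissue in the order was not tested. Not all animals showed opposite arms. Animal 15 of T had the highest Clock and Npas2 of its group and also the highest Per1, Cry1 and Cry2. Animal 2 of S had the highest Arntl and Npas2 as well as the highest Per2 and Per3. The order says little where the range was small, as for Clock among the T animals (1.09-fold) and Npas2 among the S animals (1.01-fold).

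The spread between animals of one group split the loop by gene. The pooled within-group SD of log2 CPM was 0.89 for Per1, larger than that of 98.5% of the genes tested, 0.72 for Per2 (97.2%) and 0.45 for Per3 (90.5%). It was 0.38 for Npas2 and 0.36 for Arntl, and 0.25 for Nr1d2. Cry2 and Nr1d1, at 0.16 and 0.17, lay near the median of all genes, 0.17, and Clock (0.11) and Cry1 (0.14) lay below it.

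**Figure D4:**
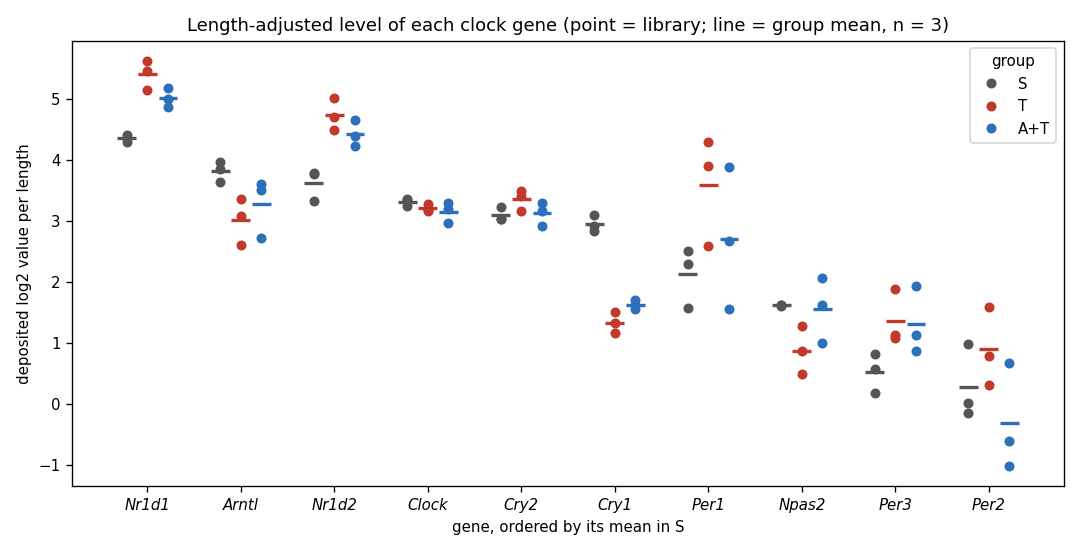
Deposited log2 value per length (vertical axis) of each clock gene, ordered by its mean in S. Points are libraries coloured by group and short lines are group means (n = 3). Nr1d1 is highest in each library, and Arntl drops from rank 2 in S to rank 6 in T.

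Levels were compared between genes only on the deposited log2 scale, which is adjusted for gene length. Nr1d1 had the highest level per length of the 10 genes in each of the 9 libraries, with means of 4.35 ± 0.06 for S, 5.40 ± 0.24 for T and 5.01 ± 0.16 for A+T. In S it was followed by Arntl (3.81 ± 0.16), Nr1d2 (3.62 ± 0.26), Clock (3.31 ± 0.06), Cry2 (3.10 ± 0.12) and Cry1 (2.95 ± 0.14). Arntl and Nr1d2 changed order between the S libraries, whereas Cry2 lay above Cry1 in each S library. Per1 (2.13 ± 0.49), Npas2 (1.62 ± 0.0040), Per3 (0.53 ± 0.32) and Per2 (0.29 ± 0.61) were the lowest, and Per3 and Per2 did not differ beyond their spread. By group mean, Arntl moved from rank 2 in S to rank 6 in T and rank 3 in A+T, Per1 from rank 7 to 3 and 6, and Cry1 from rank 6 to 8 and 7. Npas2 had the lowest mean in T, 0.88 ± 0.40, next to Per2 at 0.90 ± 0.64.

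Genes directly downstream of the loop were followed next. Dbp, whose product drives D-box genes and whose own gene is a strong E-box target, was at 6.58, 6.59 and 4.92 CPM in S, at 22.2, 57.8 and 20.4 CPM in T and at 12.2, 15.6 and 32.0 CPM in A+T. Each host library lay above each S library, and animals 12 and 22 were again the highest of their groups. Dbp rose in T vs. S (log2 fold change 2.47, standard error 0.46, adjusted P = 0.00432) and in A+T vs. S (1.72, standard error 0.46, adjusted P = 0.0468). Ciart, a repressor of the activating complex, rose in T vs. S (1.97, standard error 0.56, adjusted P = 0.0307), and Bhlhe40, a further E-box repressor, rose in T vs. S (0.60, adjusted P = 0.0112) and fell in A+T vs. T (−0.55, adjusted P = 0.0440). With 1 animal left out, the A+T vs. S call of Dbp stood in 3 of 9 fits, the T vs. S call of Ciart in 5 and the A+T vs. T call of Bhlhe40 in 2. The call of Bhlhe40 was also lost with upper-quartile scaling, with library size only and with only those 2 groups. With limma-voom the A+T vs. S call of Dbp (adjusted P = 0.0944) and the T vs. S call of Ciart (adjusted P = 0.0530) were lost. Dbp, Ciart and Bhlhe40 were 3 of the 7 output factors called in T vs. S, where 21.2% of all genes were called. The share was 5.88% in A+T vs. T and 8.31% in A+T vs. S. The list counts here and below are set against the share of their own comparison, and nothing particular to a list is read from them. Tef, Hlf, Nfil3 and Bhlhe41 did not pass in any comparison. The D-box repressor gene Nfil3 had values of −0.87 (adjusted P = 0.0671) in T vs. S and −1.07 (adjusted P = 0.0556) in A+T vs. S. The 3 ROR genes, which act on the same elements as REV-ERB, did not pass either, with Rora at 0.33 in T vs. S (adjusted P = 0.0512).

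**Figure D5:**
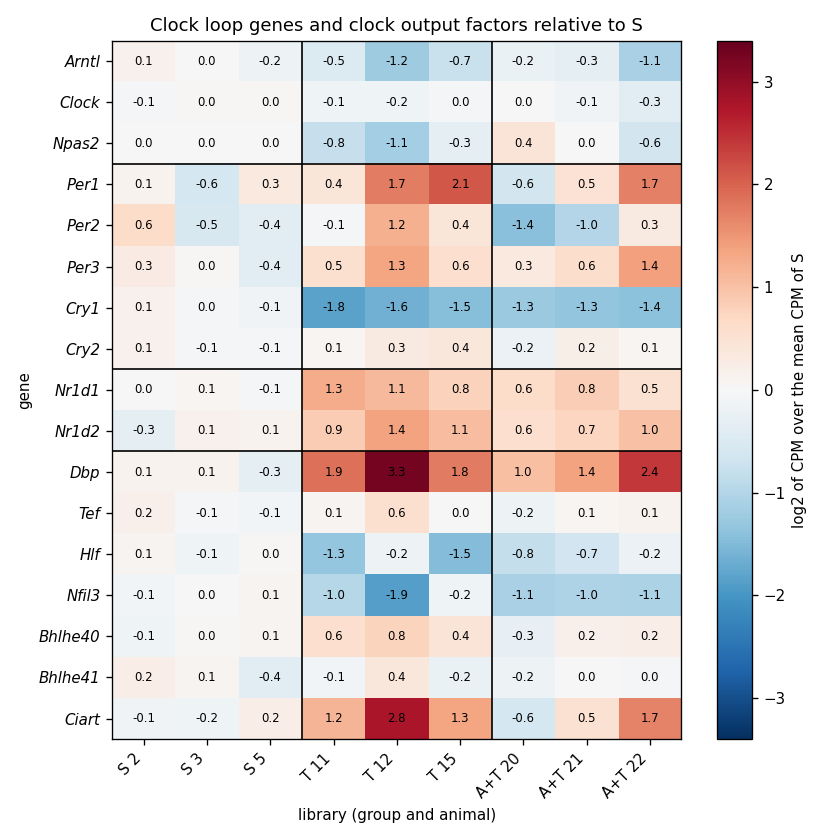
Log2 of the CPM in each library over the mean CPM of S (colour and printed value) for the 10 clock genes and 7 clock output factors. Vertical lines part the groups, and horizontal lines part positive arm, Per and Cry genes, REV-ERB genes and output factors. Cry1 lies between −1.82 and −1.27 in each of the 6 host libraries, and Dbp between 1.01 and 3.26.

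Of 9 genes for kinases, ligases and phosphatases that set the turnover of clock proteins, 3 rose and 0 fell in T vs. S. They were Usp2, a deubiquitinase with a rhythmic transcript (log2 fold change 0.62, adjusted P = 0.00485), Csnk1e, a PER kinase (0.38, adjusted P = 0.0205), and Ppp1cb, a phosphatase subunit (0.46, adjusted P = 0.0213). Without animal 2 or 3 of S, or with library size only, the calls of Csnk1e and Ppp1cb were lost. With 1 animal left out each of these 2 calls stood in 6 of 9 fits. The highest adjusted P-value in these fits was 0.0806 for Csnk1e, without animal 11 of T, and 0.0802 for Ppp1cb, without animal 2 of S. Usp2 fell in A+T vs. T (−0.53, adjusted P = 0.0290), a call that was lost without animal 12, 15 or 20, with library size only, with only the 2 groups, and without animals 12 and 22. Of 10 cofactor genes in the table, Sirt1 was the 1 gene called in T vs. S. It encodes an NAD-dependent deacetylase that binds CLOCK, and it rose in T vs. S (0.51, adjusted P = 0.00263) and fell in A+T vs. T (−0.35, adjusted P = 0.0406). The second call stood in 1 of the 9 fits that dropped an animal and was lost without animals 12 and 22 (adjusted P = 0.0768). The REV-ERB corepressor genes Ncor1 and Hdac3 had values of −0.10 and 0.11 in T vs. S (adjusted P = 0.450 and 0.349).

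Of 9 clock-controlled genes outside the loop, 5 rose in T vs. S and 0 fell. Those with the smallest adjusted P-values were Tspan4 (1.40), Cdkn1a (1.17), Herpud1 (0.85) and Klf15 (1.02), the last a Krüppel-like factor that controls amino acid use and repolarization in heart. Cdkn1a (−1.02), Herpud1 (−0.79) and Klf15 (−0.76) fell in A+T vs. T, where 5.88% of all genes were called. The call of Klf15 stood in 2 of 9 fits with 1 animal left out and the others in 9. In A+T vs. S, where 8.31% of all genes were called, Tspan4 rose (1.21, adjusted P = 0.00543). Cdkn1a and Herpud1 are also known as genes of the p53 and endoplasmic reticulum stress responses.

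Inputs that can reset or modulate peripheral clocks were read from 3 further lists. Of 7 temperature-responsive genes, the cold-induced RNA-binding genes Cirbp (1.15) and Rbm3 (0.98) rose and 3 heat shock genes fell in T vs. S, Hsph1 (−1.12) and Hspa1b (−1.67) among them. The same 5 were called with the same directions in A+T vs. S (3 without animal 2 of S or with library size only), where 8.31% of all genes were called. In A+T vs. T 0 of the 7 were called, and edgeR gave the smallest adjusted P-value to Rbm3 at 0.171. Of 7 glucocorticoid-responsive genes, Zbtb16 (2.80), Pdk4 (3.00) and Fkbp5 (1.59) rose in T vs. S. Zbtb16 (−1.69) and Fkbp5 (−1.58) fell in A+T vs. T, where 5.88% of all genes were called. Pdk4 had an A+T vs. T value of −0.15 and was not called there. In A+T vs. S, where 8.31% of all genes were called, Zbtb16 (1.10) and Pdk4 (2.85) were called as higher. These 2 calls stood in 6 and 8 of 9 fits with 1 animal left out. Of 8 immediate early genes, Egr1 (−2.08) and Ier2 (−0.83) fell in T vs. S, and Egr1 rose in A+T vs. T (1.96, adjusted P = 0.0481). Both T vs. S calls were lost without animal 3 of S, that of Ier2 stood in 3 of 9 such fits, and the A+T vs. T call of Egr1 stood in 2 of 9 and was lost without animals 12 and 22 (adjusted P = 0.0891). The part of temperature, glucocorticoids or acute signals in the clock gene values was not tested.

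Across the 9 libraries, the genes whose log2 CPM was most like the difference between the arms were 1600014C10Rik (Pearson r = 0.963), Ybx2 (0.958), Ssc5d (0.957), Sod2 (0.956) and Heatr6 (0.950). Those most opposite were Zfpl1 (−0.959), Ccdc59 (−0.955), Tspyl2 (−0.950), Eapp (−0.945) and Arl4a (−0.941). Sod2, the mitochondrial superoxide dismutase, ran from 680 to 736 CPM in S, from 510 to 612 CPM in T and from 563 to 700 CPM in A+T, with its lowest values of T and A+T in animals 12 and 22. Among the output factors r was −0.88 for Dbp and −0.84 for Bhlhe40. These values are a description over 9 libraries that share group and animal differences, taken from the extremes of 10238 genes with a mean of at least 5 CPM, and carry no test.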

How the data were processed

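Heart RNA of 9 NSG mice, 3 in each group, was sequenced as 75-base paired ends by the authors, who used STAR and the mm10 genome and deposited raw counts per gene from strand-specific featureCounts on uniquely mapped reads. The authors also deposited log2 values scaled by library size and gene length. Groups and animal numbers were taken from the labels, and each library was taken as 1 animal. Genes under 0.5 CPM in more than 4 libraries were removed, as in the study. All 9 libraries entered one edgeR quasi-likelihood fit (edgeR 4.0.16, R 4.3.3) with TMM scaling, and P-values were adjusted over all genes. A gene was called at an adjusted P-value under 0.05. CPM and standard errors come from this fit, and intervals cover the spread between these libraries only. The comparisons share libraries. DESeq2 1.42.0, limma 3.58.1, other scalings and filters, and leaving out animals were alternatives. The alternatives without animals 12 and 22 and without Rn45s, a ribosomal transcript with 4.57% to 19.6% of the counts, were chosen after seeing the data. The arm differences with 1 animal left out were not planned beforehand either. The test was also run on simulated counts, and the outcome of that run is not given here. The genes, lists and named genes were chosen with earlier results of these data known. All 10 clock genes are named, and of each further list the called genes, at most 4 by adjusted P-value in T vs. S. The 5 genes most like and the 5 most opposite to the arm difference were named by Pearson r. Rora, Nfil3, Tef, Hlf, Bhlhe41, Ncor1, Hdac3 and the cell type markers named were chosen after their values were seen. Gene coordinates are from GENCODE on GRCm38 and promoter sequences from RefSeq on GRCm38.p6. The deposited log2 values served the levels per length and 1 alternative. The counts of the table end in 3443 rows with no symbol and no value, which were dropped. An item of the further lists is not reported here.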

Additional observations from a re-analysis of the deposited data

How the results depend on the processing

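The counts of clock genes called moved with the setting. In T vs. S it was 4, and 7 with only the 2 groups compared, 7 without animals 12 and 22 and 7 at the study's cut-offs, and 3 to 7 when 1 animal was left out. For A+T vs. T it was 0, and 1 with DESeq2, 1 without animals 12 and 22 and 2 at the study's cut-offs, and 0 to 2 when 1 animal was left out (1 without animal 15 of T, 2 without animal 22). For A+T vs. S it was 3, and 1 to 3 when 1 animal was left out (1 without animal 2 of S). The arm difference of A+T vs. S turned from −0.39 to 0.033 without animals 12 and 22, and ran from −0.73 to 0.033 when 1 animal was left out. Values near 0 changed sign for Clock in A+T vs. T (0.013 without animals 12 and 22, and −0.12 to 0.036 with 1 animal left out), for Per3 in A+T vs. T (0.015 with upper-quartile scaling, and −0.42 to 0.29 with 1 animal left out), for Npas2 in A+T vs. S (−0.062 with limma-voom and −0.059 on the deposited log2 values, and −0.28 to 0.25 with 1 animal left out) and for Cry2 in A+T vs. S (−0.044 to 0.13 with 1 animal left out). The cause was not tested. Of the 110 values of single clock genes in T vs. S under alternatives other than a left-out animal, 100 kept direction and side of the threshold, 10 gained a call and 0 lost one. Over all genes, the calls in T vs. S were 2837, and 1637 with library size only. For A+T vs. T they were 786, and 1198 with DESeq2, 438 with library size only and 217 with only the 2 groups compared. For A+T vs. S they were 1110, and 555 with library size only. With 1 animal left out they ran from 1765 (without animal 11) to 3786, from 130 (without animal 11) to 1006 (without animal 22), and from 269 (without animal 2) to 1086, in that order. No paired analysis was possible because the labels give each animal its own number and the groups share none. With 3 animals a group, the 95% interval of Per1 in T vs. S ran from 0.36 to 2.80 on the log2 scale.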
